A study of Mus musculus with 15 samples.

Results

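Polycomb group genes encode the chromatin regulators that keep developmental genes silent, and 9 of them were followed here in cultured mouse mesenchymal cells: Ezh1, Ezh2, Eed, Suz12, Jarid2, Bmi1, Cbx2, Cbx7 and Cbx8. They were chosen by name, as the rows of the count table whose Ensembl identifier maps to these symbols, and all 9 were found among the 55471 genes of the table. The series title places the cells in a study of YAP1, the fusion EWS::FLI1 of Ewing sarcoma and IGF-1 in bone mesenchymal stem cells. All 15 poly(A) RNA libraries carry the cell type label MSCLCs, which the labels do not spell out. Experiment 1 set 3 libraries with genotype MSC (titles 202, 234_WT and 237_WT; wild type in the design text) against 4 with genotype EFPrx1MSCLC (titles 219, 221, 225 and 229). In experiment 2, every title carries the number 221, and the genotypes were EF (2 libraries), ha (2 libraries) and hr (4 libraries), which the design text writes as EFPrx1, ha-EFPrx1 and hr-EFPrx1. The 4 hr libraries come as 2 lines, uns-1 (hr 1 and hr 2) and uns-2 (hr 3 and hr 4). The labels do not say what ha, hr, T and uns stand for, how old the animals were, or which cells of a culture express the fusion.

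Polycomb proteins work in 2 main complexes. Polycomb repressive complex 2 (PRC2) methylates lysine 27 of histone H3: EZH1 or EZH2 is the methyltransferase, EED and SUZ12 are core subunits without which the complex is not active, and JARID2 is an accessory subunit that helps bring it to its targets. Polycomb repressive complex 1 (PRC1) ubiquitinates histone H2A through RING1 or RNF2 joined to a PCGF protein such as BMI1, and in its canonical form a CBX protein reads the methyl mark. EZH2 is typical of dividing cells and EZH1 of resting ones, and BMI1 and CBX7 are known as repressors of the Ink4a/Arf locus (Cdkn2a), a brake on cell division.

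Libraries held 14906180 to 26833876 counts in experiment 1 and 11195371 to 16378368 in experiment 2. The experiments ran on different flowcells, so no test joined them. All 13 mesenchymal markers examined had counts in every group, but their sum was lower in EFPrx1MSCLC (4500 to 11100 CPM) than in MSC (16100 to 20100) or experiment 2 (11900 to 19900; CPM is a library-size scaled count, here with TMM factors). They did not move together: Prrx1 was at 304 to 796 CPM in EFPrx1MSCLC and 139 to 271 in MSC, Col1a1 at 235 to 1360 and 5400 to 5640. Within experiment 2 the mesenchymal sum was 18000 to 19900 CPM in ha, 13200 to 13500 in EF and 11900 to 13800 in hr. There too the markers moved in different directions. Pdgfra was at 1450 to 1610 CPM in ha and 258 to 261 in EF, Vim at 1920 to 2120 and 4630 to 4640. The MSC libraries also held RNA of blood cells: 16 hematopoietic and macrophage markers summed to 12600 to 35400 CPM there, against 66.2 to 472 in EFPrx1MSCLC and 17 to 62.6 in experiment 2, where 7 of the 16 were at 0 in all EF, 8 in all ha and 5 in all hr libraries. Endothelial markers summed to 2.24 to 116 CPM in experiment 1 and 7.24 to 19.2 in experiment 2, and epithelial ones to at most 39.5 CPM in any library. Within experiment 2 the epithelial sum was 0.648 to 1.02 CPM in ha, 13 to 14.5 in EF and 32.2 to 38.5 in hr. The part of these marker differences in the results of experiment 2 was not tested. In these bulk samples, fewer cells of a type and less RNA per cell cannot be told apart. EFPrx1MSCLC 225 stood apart, with 378 CPM of 22 proliferation genes against 2061 to 2327 in the other EFPrx1MSCLC libraries, the lowest mesenchymal sum (4497 CPM) and the highest mitochondrial share of counts (8.43%). That share did not overlap between the groups of experiment 1, at 1.63 to 3.52% in MSC and 4.06 to 8.43% in EFPrx1MSCLC. Ddx3y, on the Y chromosome, was at 97.7 and 48.7 CPM in MSC 202 and 234 and at most 0.144 CPM in the other 13 libraries, so sex and genotype are partly confounded in experiment 1. The EF pair and the hr pairs of the same line lay close together: the median over genes of the squared difference was 1.29 to 1.31 times that of sampling noise, against 14.7 to 15.8 for hr libraries of different lines, 18.8 for the ha pair and 7.16 to 97.8 within the groups of experiment 1. Such pairs may be repeat libraries of the same culture, and no label says otherwise; p-values then measure a spread that may be technical. Since the fusion is not a separate row, it offers no check of the genotype labels.

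Levels can be compared between genes only per length, as RPKM (CPM per kilobase of exon, group means ± SD). The length used merges all annotated exons of a gene, so it can exceed that of the transcript expressed. The order of the genes and the paralog shares below depend on this length and are not ratios of transcripts. Bmi1 and Suz12 were the most abundant members in EF (31.4 ± 0.56 and 29.5 ± 0.58 RPKM, n = 2), followed by Eed at 12.1 ± 0.25, Ezh2 at 9.68 ± 0.35 and Cbx2 at 7.87 ± 0.21. Cbx8 (4.73 ± 0.64), Ezh1 (2.67 ± 0.38), Cbx7 (1.22 ± 0.16) and Jarid2 (0.860 ± 0.028) came last. Bmi1 also led in ha (29.3 ± 1.9 RPKM, n = 2), EFPrx1MSCLC (23.4 ± 6.4, n = 4) and MSC (9.55 ± 2.0, n = 3). In MSC, Bmi1, Eed (8.54 ± 1.9) and Suz12 (8.26 ± 2.2) did not differ beyond their spread, and neither did Suz12 (27.7 ± 0.18) and Bmi1 (25.9 ± 2.9) at the head of the order in hr (n = 4). In MSC, Cbx2 (0.818 ± 0.23 RPKM) and Cbx7 (0.915 ± 0.43) came last and did not differ beyond their spread.

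Experiment 1 asked how cells with the fusion label differed from wild-type cells. In EFPrx1MSCLC, 3 of the 9 genes rose: Suz12 of PRC2, and Bmi1 and Cbx2 of PRC1. None of the 9 was called lower; Eed and Jarid2 had lower means but did not pass. Of all 14596 genes tested, 19.8% were called, 7.7% higher and 12.1% lower (edgeR's quasi-likelihood test, Benjamini-Hochberg adjusted p under 0.05). The median log2 change of the 9 was 0.97, against 0.04 over all genes. The groups did not overlap for 6 of the 9 (34.5% of all genes tested), and 5 of these were above MSC (16.1% of all). The count of 3 rested on single libraries: 1 gene passed without EFPrx1MSCLC 221, MSC 234 or MSC 237, 2 without EFPrx1MSCLC 229, and 5 without EFPrx1MSCLC 225 or MSC 202. DESeq2 called 6 of the 9, among 4598 genes called in all.

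Among the PRC2 core genes, Suz12 (chromosome 11, 79993106 to 80034123, plus strand, GRCm38) stood at 53.0, 33.5 and 36.02 CPM in MSC 202, 234 and 237. It stood at 74.2, 79.1, 80.2 and 87.4 CPM in EFPrx1MSCLC 219, 221, 225 and 229, so every EFPrx1MSCLC library was above every MSC library. The log2 change was 0.97 ± 0.23 (SE; edgeR adjusted p = 0.025). The call was lost without EFPrx1MSCLC 221 (0.93, edgeR adjusted p = 0.0635), EFPrx1MSCLC 229 (0.87, 0.0754), MSC 234 (0.85, 0.0963) or MSC 237 (0.89, 0.122). Eed (chromosome 7, 89954654 to 89980983, minus strand), the subunit that binds the methyl mark and activates the enzyme, was at 25.9, 40.04 and 32.2 CPM in the MSC libraries. In EFPrx1MSCLC it was at 25.4, 18.1, 18.9 and 18.3 CPM, all below the lowest MSC value. At -0.70 ± 0.25 Eed missed the threshold (edgeR adjusted p = 0.0858), but passed without MSC 202 (-0.83, edgeR adjusted p = 0.0341) and by DESeq2 (-0.75, adjusted p = 0.0366).

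The methyltransferase gene Ezh2 (chromosome 6, 47530139 to 47595341, minus strand) varied widely within EFPrx1MSCLC. It was at 7.47, 20.1 and 13.1 CPM in MSC 202, 234 and 237, and at 76.3, 45.2 and 51.9 CPM in EFPrx1MSCLC 219, 221 and 229. EFPrx1MSCLC 225 held only 5.07 CPM, below every MSC library, so the groups overlapped. The log2 difference was 1.72 ± 0.80 (edgeR adjusted p = 0.161) with all libraries and 2.01 without 225 (edgeR adjusted p = 0.0243). Its paralog Ezh1 (chromosome 11, 101191115 to 101226463, minus strand) was at 35.7, 17.9 and 20.3 CPM in MSC and 35.0, 33.1, 53.2 and 37.1 CPM in EFPrx1MSCLC, with 225 the highest. Ezh1 differed by 0.69 ± 0.32, which did not pass (edgeR adjusted p = 0.165), though it did without MSC 202 (1.06, edgeR adjusted p = 0.0263). Jarid2 (chromosome 13, 44729474 to 44921643, plus strand) was at 18.2, 12.1 and 17.2 CPM in MSC and 7.12, 7.87, 12.4 and 6.36 CPM in EFPrx1MSCLC. Only EFPrx1MSCLC 225 reached into the MSC range. At -0.91 ± 0.34 Jarid2 missed the threshold (edgeR adjusted p = 0.0968), but passed without 225 (-1.22, edgeR adjusted p = 0.0226) and by DESeq2 (-0.95, adjusted p = 0.0312).

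The promoter windows of Ezh2, Suz12 and Ezh1 are shown because libraries low in Ezh2 were also low in proliferation genes, which E2F factors are known to drive, and Suz12 and Ezh1 are its partner and its paralog. E2F binding sites were searched on both strands as TTTCCCGC, TTTGGCGC, TTTGCCGC and TTTCGCGC, spellings that do not overlap each other in these windows, in the windows from 250 bases before to 50 after the start of RefSeq genes (GRCm38.p6). Of the 9 genes, 8 had a window (9 windows, since Jarid2 had 2); Cbx2 had none. Ezh2 holds TTTGGCGC from the fourth base of the RefSeq transcript (0.514% of 32851 windows hold that spelling), and Suz12 holds TTTCCCGC starting 219 bases before its start (1.07%). Of all windows, 2.26% hold at least 1 of the 4 spellings, and no other member window does. The doubled GGAA unit, GGAAGGAA, which resembles the repeats that EWS::FLI1 is known to bind, is in 3.79% of windows and in no member window. The first 280 bases of each window, 30 of them after the RefSeq start, are printed 5′ to 3′ with the E2F spelling in capitals. They lie at chr6:47595001-47595280 (minus strand), chr11:79992856-79993135 (plus) and chr11:101226434-101226713 (minus). The Ezh2 position given earlier reaches further upstream, to 47595341, so by that position the whole printed Ezh2 stretch lies inside the gene.
Ezh2: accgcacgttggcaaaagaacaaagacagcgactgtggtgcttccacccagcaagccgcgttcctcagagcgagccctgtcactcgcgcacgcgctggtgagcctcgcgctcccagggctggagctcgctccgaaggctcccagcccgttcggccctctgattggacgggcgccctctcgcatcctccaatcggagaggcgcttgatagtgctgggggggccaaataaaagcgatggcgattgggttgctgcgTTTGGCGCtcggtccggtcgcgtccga
Suz12: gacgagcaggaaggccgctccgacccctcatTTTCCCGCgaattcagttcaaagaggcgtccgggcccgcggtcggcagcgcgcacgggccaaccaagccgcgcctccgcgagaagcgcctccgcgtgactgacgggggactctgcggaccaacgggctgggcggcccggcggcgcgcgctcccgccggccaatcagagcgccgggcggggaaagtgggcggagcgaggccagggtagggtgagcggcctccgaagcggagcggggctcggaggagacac
Ezh1: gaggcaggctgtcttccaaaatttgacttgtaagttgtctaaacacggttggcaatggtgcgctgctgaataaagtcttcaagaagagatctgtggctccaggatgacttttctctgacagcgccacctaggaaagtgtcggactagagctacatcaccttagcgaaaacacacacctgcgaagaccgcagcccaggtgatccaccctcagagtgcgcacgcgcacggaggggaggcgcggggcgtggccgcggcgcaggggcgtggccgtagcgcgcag
GC content was 64.6% for Ezh2, 73.6% for Suz12 and 58.2% for Ezh1, with 30, 41 and 21 CG dinucleotides. A match to these letters describes the sequence and does not show that a factor binds there.

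Of the 4 PRC1 members, Cbx2 (chromosome 11, 119022962 to 119031270, plus strand), whose protein compacts chromatin, was at 4.54, 2.65 and 3.25 CPM in MSC 202, 234 and 237. In EFPrx1MSCLC it was at 11.9, 15.6, 11.5 and 16.6 CPM, so all 4 libraries were above all MSC libraries. Cbx2 rose by 1.99 ± 0.35 (edgeR adjusted p = 0.00878), and this call was made under all 13 alternatives tried in experiment 1. Bmi1 (chromosome 2, 18677018 to 18686629, plus strand) was at 47.2, 33.2 and 33.5 CPM in MSC and at 65.4, 97.9, 125.6 and 83.1 CPM in EFPrx1MSCLC, again without overlap. It rose by 1.29 ± 0.29 (edgeR adjusted p = 0.0207), a call lost without EFPrx1MSCLC 221 (1.21, edgeR adjusted p = 0.0562), MSC 234 (1.20, 0.0835) or MSC 237 (1.21, 0.0982).

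Cbx7 (chromosome 15, 79915807 to 79971119, minus strand), whose protein reads H3K27 methylation, was at 8.77, 3.18 and 5.85 CPM in MSC. In EFPrx1MSCLC 219, 221 and 229 it was at 11.1, 11.8 and 9.49 CPM, just above that range, and in 225 at 62.2 CPM. The log2 difference was 1.99 ± 0.80 and did not pass (edgeR adjusted p = 0.12); it was 0.80 without 225 (edgeR adjusted p = 0.187), and it passed by DESeq2 (1.96, adjusted p = 0.0374). Cbx8 (chromosome 11, 119036305 to 119040969, minus strand), the neighbour of Cbx2, was at 4.45, 6.58 and 8.59 CPM in MSC and 9.33, 10.4, 11.7 and 9.28 CPM in EFPrx1MSCLC. Its groups did not overlap, but at 0.64 ± 0.34 it missed the threshold (edgeR adjusted p = 0.213).

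**Figure D1:**
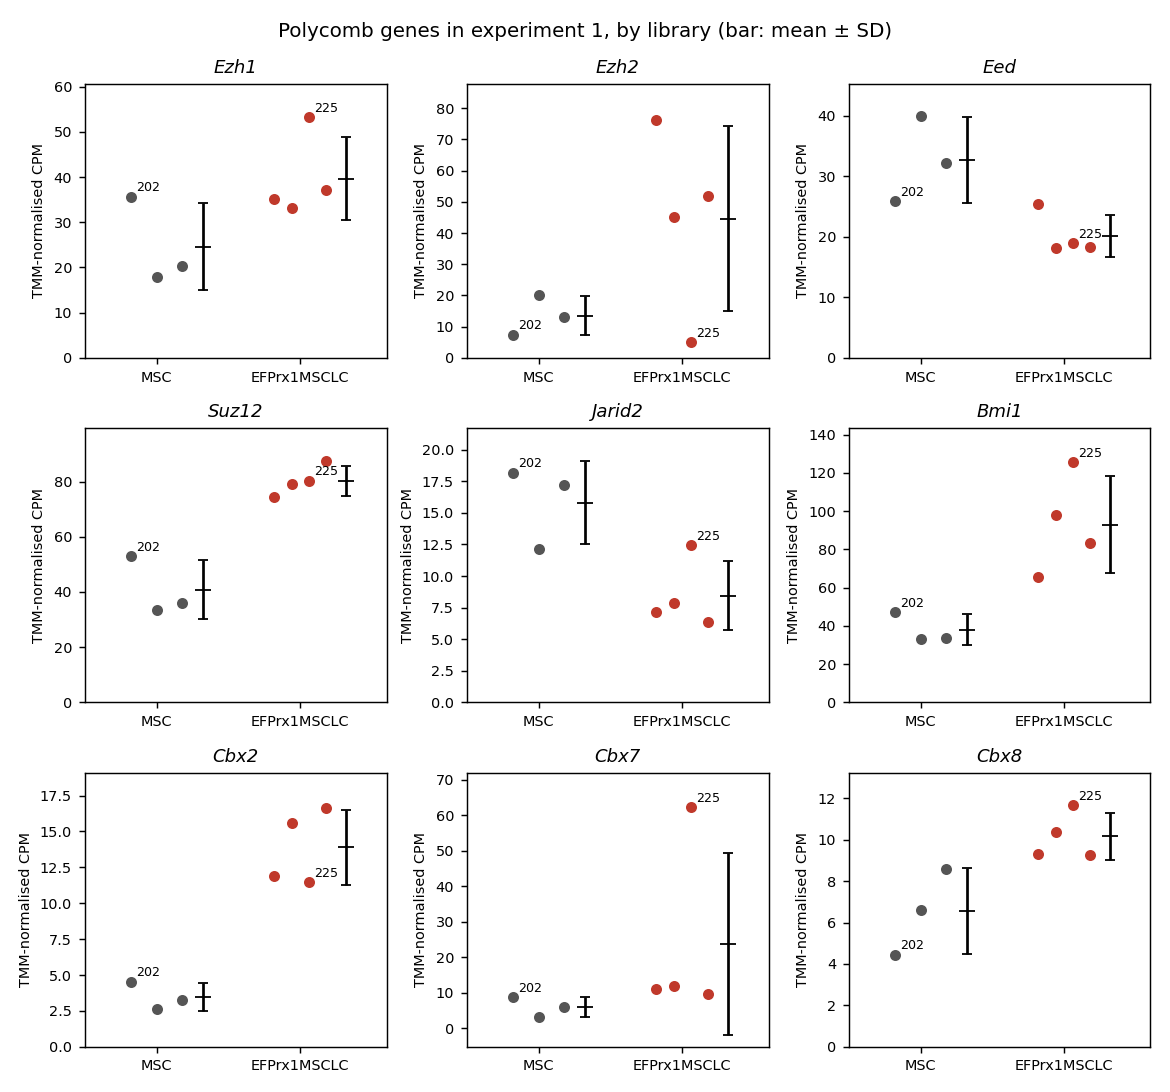
TMM-normalised CPM (y axis, linear) of the 9 genes in the 3 MSC and 4 EFPrx1MSCLC libraries, 1 point a library; bars give mean ± SD, and libraries 202 and 225 are labelled. Suz12, Bmi1 and Cbx2 are higher in every EFPrx1MSCLC library, while 225 lies lowest for Ezh2 (5.07 CPM) and highest for Cbx7 (62.2 CPM).

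The blood cell and mesenchymal marker sums, the mitochondrial share and part of sex, given above, moved with genotype in experiment 1, and their part in these differences was not tested.

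Among 34 other Polycomb genes, 4 rose in EFPrx1MSCLC, 0 fell and 30 did not pass, with a median log2 change of 0.29 against 0.04. Of all genes 19.8% were called, 7.7% higher and 12.1% lower. The share of the 34 called in either direction was thus smaller, but the share called higher was not. All 4 genes that rose belong to PRC1. L3mbtl2, a subunit of a variant PRC1 that recognises chromatin through MBT domains, rose by 1.25 ± 0.21 (edgeR adjusted p = 0.00802), also without each library in turn. Kdm2b, which brings a variant PRC1 to CpG islands, rose by 1.08 ± 0.22 (edgeR adjusted p = 0.0159), and Phc1, a polyhomeotic subunit, by 1.41 ± 0.32 (edgeR adjusted p = 0.0231). Without EFPrx1MSCLC 229, MSC 234 or MSC 237 neither Kdm2b (1.02, 0.94 and 1.07) nor Phc1 (1.36, 1.38 and 1.27) passed. Cbx6, a further CBX gene, rose by 1.13 ± 0.27 (edgeR adjusted p = 0.0277), but not without EFPrx1MSCLC 219, 221 or 229 or MSC 234 or 237 (0.94 to 1.22, highest adjusted p 0.121). None of the 8 other PRC2 subunits and none of the 6 H2A deubiquitinase and H3K27 demethylase genes passed by edgeR. Without MSC 202, 12 of the 34 passed, without EFPrx1MSCLC 229, MSC 234 or MSC 237 only 1, and by DESeq2 7.

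Of 19 textbook Polycomb target genes, 14 passed the low-count filter in experiment 1, some only through the group where they are high, so no count or median is given for the list. Cdkn2a, the Ink4a/Arf gene, was at 43.8, 115.7 and 109 CPM in MSC and at 1.59, 0, 2.05 and 0.174 CPM in EFPrx1MSCLC. It fell by 6.59 ± 1.19 (edgeR adjusted p = 0.00998). Its neighbour Cdkn2b was at 33.5, 42.0 and 45.8 CPM in MSC and 18.9, 0.0480, 30.5 and 1.18 CPM in EFPrx1MSCLC, which at -1.68 ± 1.35 missed the threshold (edgeR adjusted p = 0.398). Cdkn1c, another cell cycle inhibitor gene, was at 9.72 ± 6.7 CPM in MSC (n = 3) and 0.0961 ± 0.12 in EFPrx1MSCLC (n = 4, edgeR adjusted p = 0.0105). Cdkn2a and Cdkn1c passed the filter only through MSC. Each could therefore only be called lower in EFPrx1MSCLC, and no conclusion is drawn from their p-values. The homeobox gene Hoxa9 rose by 2.22 ± 0.26 (edgeR adjusted p = 0.00262).

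Experiment 2 compared ha and hr cells with EF cells, all from the number 221. In ha, 7 of the 9 genes changed: Ezh1, Jarid2 and Cbx7 rose and Ezh2, Eed, Suz12 and Cbx2 fell. Of all 13998 genes tested 42.6% were called, 23.0% higher and 19.6% lower, so a large share of all genes moved too. The median log2 change of the 9 was -0.10, against 0.05 over all genes. For hr against EF none of the 9 passed by edgeR, where 6.95% of all genes did (3.88% higher, 3.07% lower). DESeq2 called 2 of the 9, among 1973 genes called in all, and limma-voom 0, among 721. In hr against ha, 6 of the 9 passed (39.4% of all genes, 17.9% higher and 21.5% lower): Eed, Suz12 and Cbx2 were higher in hr, and Ezh1, Jarid2 and Cbx7 lower, with a median of -0.17 against 0.00 over all genes. These comparisons share libraries in pairs, so each is given with its own values. The groups did not overlap for 8 of the 9 in ha against EF (75.8% of all genes), 6 in hr against EF (47%) and 7 in hr against ha (55.9%). The first group was the higher for 3, 2 and 4 of them (39.9, 22.9 and 26.6% of all genes).

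**Figure D2:**
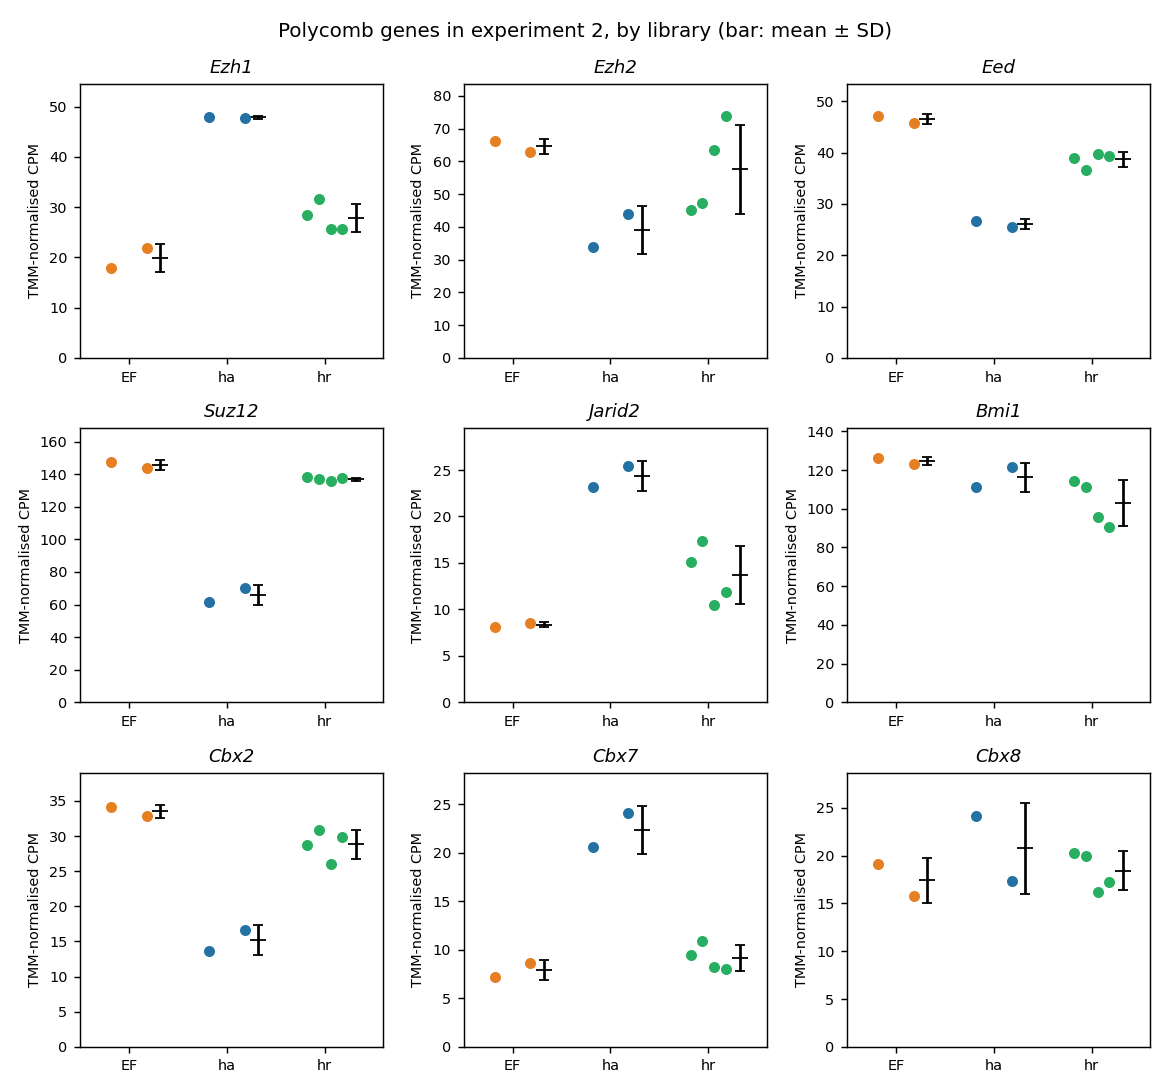
TMM-normalised CPM (y axis, linear) of the 9 genes in the 2 EF, 2 ha and 4 hr libraries, 1 point a library; bars give mean ± SD. The ha libraries are high for Ezh1, Jarid2 and Cbx7 and low for Eed, Suz12 and Cbx2, and the hr libraries lie nearer to EF for Suz12 (136 to 138 CPM in hr, 144 and 148 in EF).

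The methyltransferase paralogs changed in opposite directions in ha. Ezh1 was at 17.9 and 21.9 CPM in EF, 48.0 and 47.7 in ha, and 28.5, 31.6, 25.6 and 25.7 in hr 1 to hr 4. No groups overlapped, and all hr libraries lay between EF and ha. Ezh1 rose by 1.26 ± 0.15 in ha (edgeR adjusted p = 0.000844), and hr was lower than ha by a log2 difference of -0.78 ± 0.13 (edgeR adjusted p = 0.00275). Between hr and EF Ezh1 differed by 0.48 ± 0.13, which missed the threshold (edgeR adjusted p = 0.0707), but passed by DESeq2 (0.48, adjusted p = 0.0323). Ezh2 was at 66.3 and 63.0 CPM in EF and 33.7 and 44.1 in ha. In hr it was at 45.2 and 47.3 CPM in the uns-1 line and 63.6 and 74.0 in the uns-2 line, so hr spanned the range from just above ha to above EF. Ezh2 fell by 0.73 ± 0.25 on the log2 scale in ha (edgeR adjusted p = 0.0495), at the edge of the threshold: 8 of 16 alternatives lost the call, with adjusted p from 0.0231 to 0.197. Among them were the fits without EF 1 (-0.70), EF 2 (-0.78), ha 1 (-0.56), ha 2 (-0.94) or hr 3 (-0.73), and the fit with the replicate number as a block (-0.74, edgeR adjusted p = 0.0632). Ezh2 in hr differed from EF by -0.17 ± 0.22 (edgeR adjusted p = 0.671) and from ha by 0.56 ± 0.22 (95% interval 0.05 to 1.08; edgeR adjusted p = 0.0798), and passed without hr 1 (0.66, edgeR adjusted p = 0.0466) and by DESeq2 (0.57, adjusted p = 0.0489).

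The core subunit genes Suz12 and Eed fell together in ha. Suz12 was at 147.7 and 143.6 CPM in EF, 61.7 and 70.4 in ha, and 138, 137, 136 and 137 in hr 1 to hr 4. It fell by 1.14 ± 0.10 on the log2 scale in ha (edgeR adjusted p = 0.000312) and was higher in hr than in ha by 1.05 ± 0.09 (edgeR adjusted p = 0.000215). Suz12 in hr differed from EF by -0.09 ± 0.09 (95% interval -0.29 to 0.11; edgeR adjusted p = 0.567). Suz12 was the only member called in both ha against EF and hr against ha under all 16 alternatives. Eed was at 47.2 and 45.8 CPM in EF, 26.8 and 25.5 in ha, and 39.0, 36.6, 39.8 and 39.3 in hr, again with hr between the others. It fell by 0.83 ± 0.10 in ha (edgeR adjusted p = 0.000866) and was higher in hr than in ha by 0.57 ± 0.09 (edgeR adjusted p = 0.00248). Eed in hr differed from EF by -0.27 ± 0.09, which missed the threshold (edgeR adjusted p = 0.103).

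Jarid2 was the PRC2 gene with the largest log2 change in ha. It was at 8.16 and 8.54 CPM in EF and 23.2 and 25.5 in ha. The hr libraries held 15.1 and 17.4 CPM in the uns-1 line and 10.5 and 11.9 in the uns-2 line, between both other groups. Jarid2 rose by 1.54 ± 0.25 in ha (edgeR adjusted p = 0.0026). It was lower in hr than in ha (-0.83 ± 0.20, edgeR adjusted p = 0.0146), a call lost without ha 2 (-0.76, edgeR adjusted p = 0.072). Against EF, hr differed by 0.71 ± 0.22, which did not pass by edgeR (adjusted p = 0.0908) and did by DESeq2 (0.71, adjusted p = 0.0465).

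Among the PRC1 genes, the CBX paralogs changed in different ways in ha. Cbx2 was at 34.2 and 32.9 CPM in EF, 13.7 and 16.7 in ha, and 28.7, 30.8, 26.04 and 29.8 in hr. It fell by 1.14 ± 0.14 in ha (edgeR adjusted p = 0.000941) and was higher in hr than in ha by 0.93 ± 0.13 (edgeR adjusted p = 0.0014). Cbx7 was at 7.18 and 8.62 CPM in EF, 20.6 and 24.1 in ha, and 9.44, 10.9, 8.21 and 7.996 in hr. Both ha libraries were above every other library of the experiment. Cbx7 rose by 1.495 ± 0.21 in ha (edgeR adjusted p = 0.00147) and was lower in hr than in ha (-1.29 ± 0.17, edgeR adjusted p = 0.00117). Neither Cbx2 (-0.22 ± 0.12) nor Cbx7 (0.21 ± 0.18) passed in hr against EF (edgeR adjusted p = 0.301 and 0.514). Cbx8 was at 19.1 and 15.7 CPM in EF, 24.1 and 17.4 in ha, and 20.2, 20, 16.2 and 17.2 in hr, with all groups overlapping. Its differences were 0.25 ± 0.20 in ha (95% interval -0.22 to 0.73) and 0.08 ± 0.18 in hr (-0.33 to 0.49) against EF, and -0.17 ± 0.17 in hr against ha; none passed (edgeR adjusted p = 0.349, 0.816 and 0.462). Each changed sign when a library was left out: -0.008 for ha against EF and 0.088 for hr against ha without ha 1, and -0.055 for hr against EF without EF 2. Bmi1 was at 126 and 123 CPM in EF, 111 and 121.5 in ha, 115 and 111 in the uns-1 line of hr, and 95.5 and 90.6 in the uns-2 line. Every ha and hr library lay below both EF libraries for Bmi1, but no comparison passed. Its log2 differences were -0.10 ± 0.14 in ha (95% interval -0.42 to 0.22) and -0.28 ± 0.12 in hr (edgeR adjusted p = 0.589 and 0.192), and -0.18 ± 0.12 between hr and ha (edgeR adjusted p = 0.274).

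**Figure D3:**
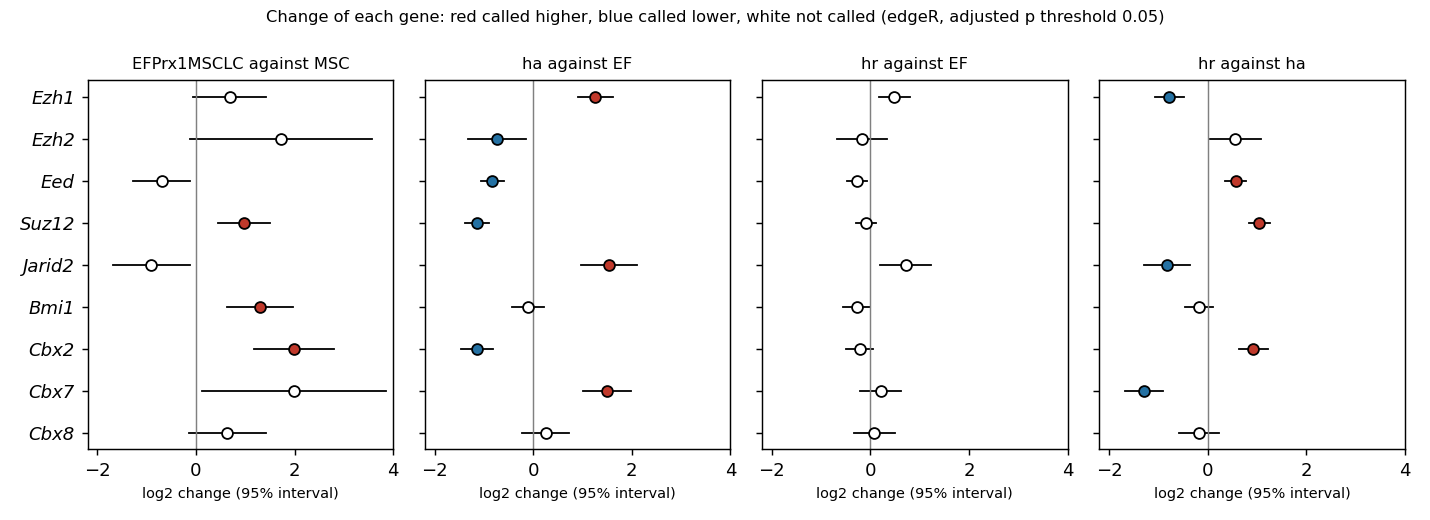
Log2 change (x axis) of each gene in the 4 comparisons, as edgeR estimates with 95% intervals; red points were called higher in the first group, blue lower, white not called. In ha against EF, 3 are red and 4 blue, no point is filled in hr against EF, and Cbx7 has the widest interval in experiment 1 (0.12 to 3.86).

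Experiment 2 rests on pairs of close libraries. When the EF pair and the hr pairs of the same line were each summed to 1 library, only Suz12 passed in ha against EF (-1.17, edgeR adjusted p = 0.0494). Suz12 (1.08, edgeR adjusted p = 0.0326) and Cbx7 (-1.26, edgeR adjusted p = 0.0474) passed in hr against ha. The log2 changes themselves moved little: Ezh1 was at 1.23, Eed at -0.86, Jarid2 at 1.51, Cbx2 at -1.17 and Cbx7 at 1.46 in ha against EF, with adjusted p from 0.0551 to 0.0797.

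Per length, the balance of the paralogs differed between libraries. Ezh2 made up 80.5 and 76.2% of the summed RPKM of Ezh1 and Ezh2 in EF, 43.9 and 50.7% in ha, 63.9 and 62.5% in the uns-1 line and 73.4 and 76.3% in the uns-2 line of hr. In experiment 1 it made up 18.9, 55.6 and 41.8% in MSC 202, 234 and 237, and 70.8, 60.3, 9.59 and 60.9% in EFPrx1MSCLC 219, 221, 225 and 229. The sum of both was 11.5 and 13.0 RPKM in ha and 12.3 and 12.4 in EF, so these groups overlapped in the sum while they did not in the share. Cbx7 made up 24.5 and 30% of the summed RPKM of Cbx2, Cbx7 and Cbx8 in ha, 7.74 and 9.97% in EF, and 9.53 to 11.7% in hr. In EFPrx1MSCLC 225 that share was 62.0%, against 18.5 to 24.2% in the other 3 libraries of its group.

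**Figure D4:**
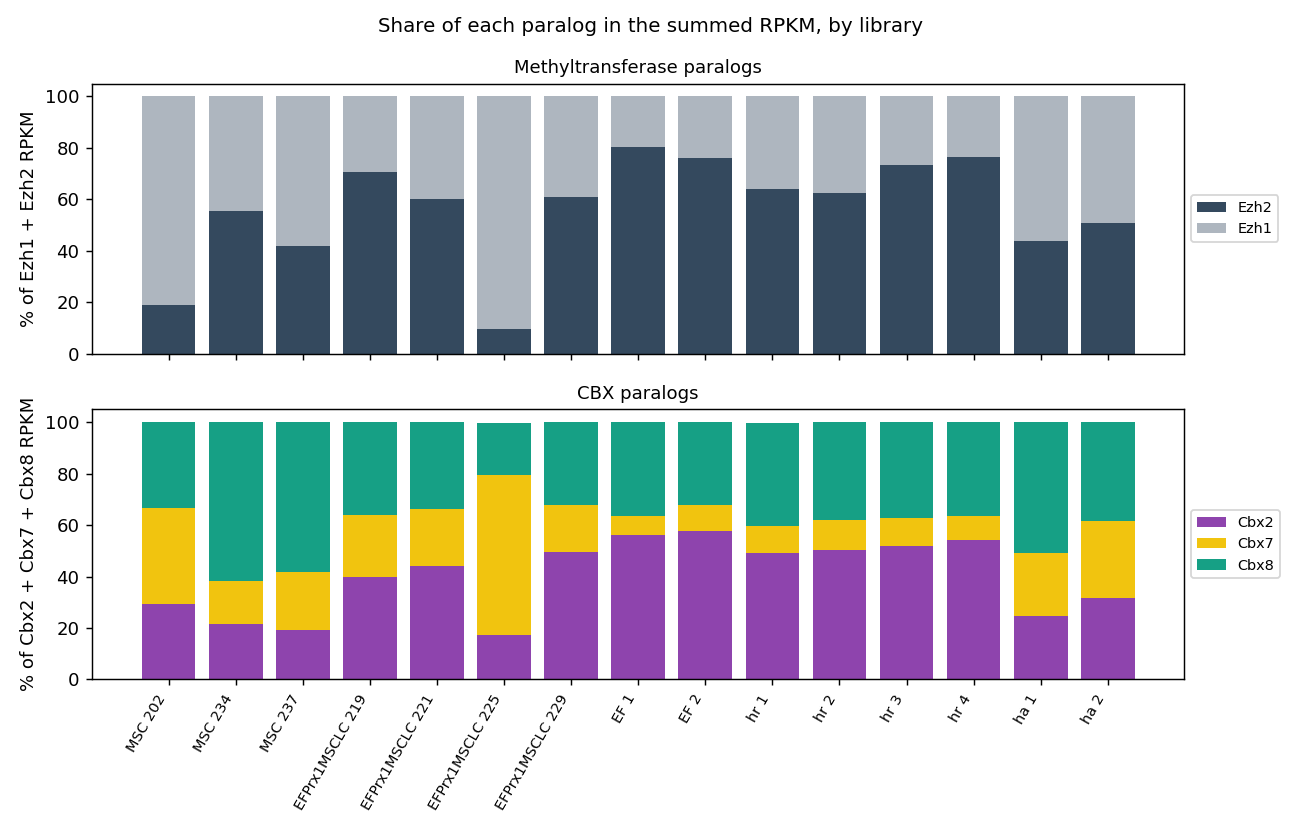
Stacked bars give the percent of the summed RPKM (y axis) taken by Ezh2 and Ezh1 (top) and by Cbx2, Cbx7 and Cbx8 (bottom), 1 bar a library, ordered by group. The Ezh2 share is lowest in EFPrx1MSCLC 225 (9.59%) and highest in EF 1 (80.5%).

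The level of proliferation genes broadly moved with Ezh2, and in experiment 2 inversely with Ezh1. The 22 proliferation genes summed to 4287 and 4337 CPM in EF, 1331 and 2066 in ha, 2254 and 2266 in the uns-1 line of hr and 3464 and 3479 in the uns-2 line. In ha 0 of the 22 rose, 18 fell and 4 did not pass (19.6% of all genes fell), with a median log2 change of -1.37 against 0.05 over all genes. With the close pairs summed, Aurkb and Plk1 kept the call (edgeR adjusted p = 0.0299 for both), while Mcm4 and Ccna2 lost it (0.062 and 0.0687). In hr against EF 0 of the 22 rose, 3 fell and 19 did not pass (3.07% of all genes fell). In hr against ha 11 were higher, 0 lower and 11 did not pass (17.9% of all genes were higher). In EFPrx1MSCLC against MSC only 1 rose, 1 fell and 20 did not pass (7.7 and 12.1% of all genes rose and fell). Both ha libraries, with the lowest sums in experiment 2, also had the lowest Ezh2 and the highest Ezh1, and the uns-1 line had less Ezh2 and more Ezh1 than the uns-2 line. In experiment 1 the order of the libraries by Ezh2 and by the proliferation sum was the same at the low end (225, then MSC 202, 237 and 234). Ezh1 fell along these libraries (53.2, 35.7, 20.3 and 17.9 CPM). EFPrx1MSCLC 219, 221 and 229 had the highest sums (2327, 2283 and 2061 CPM). They held 35.05, 33.1 and 37.1 CPM of Ezh1, more than MSC 237 and 234. The inverse order of Ezh1 and the proliferation sum was thus not kept across experiment 1. Suz12 did not follow the low proliferation sum of EFPrx1MSCLC 225, which held 80.2 CPM of Suz12, within the range of its group. In experiment 2 the groups had the same order by Suz12 as by the sum. Suz12 was at 61.7 and 70.4 CPM in ha, 136 to 138 in hr and 144 and 148 in EF. Between the hr lines, whose sums differed, it was at 138 and 137 CPM in uns-1 and 136 and 137 in uns-2. The part of proliferation in the differences of the 9 genes was not tested.

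**Figure D5:**
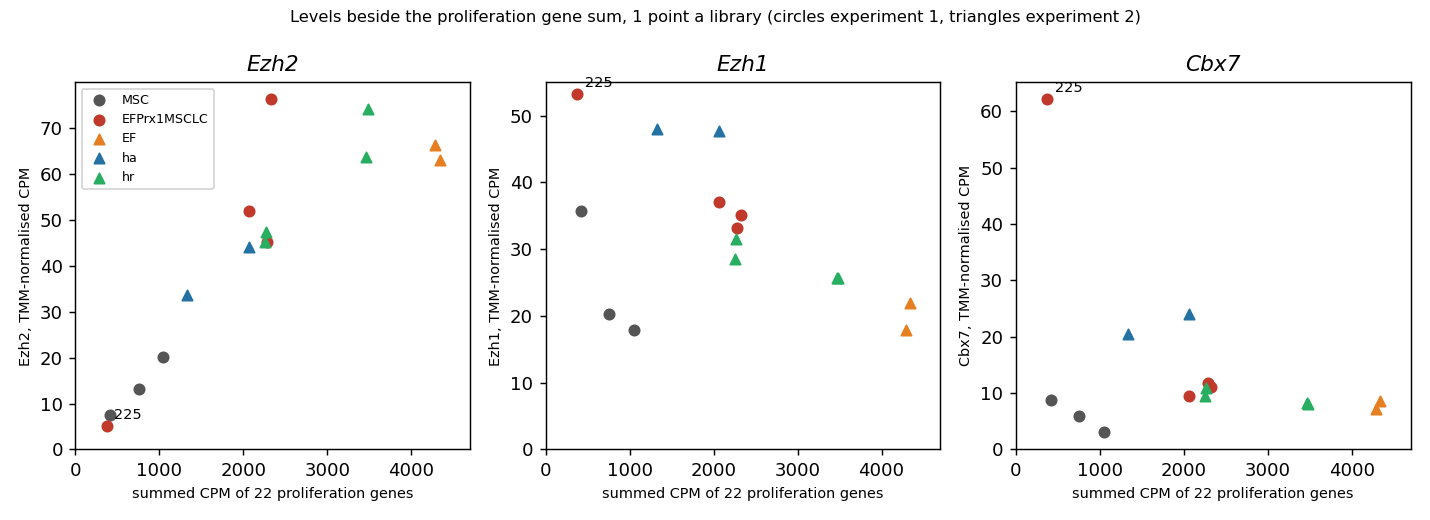
TMM-normalised CPM of Ezh2, Ezh1 and Cbx7 (y axes) beside the summed CPM of 22 proliferation genes (x axis), 1 point a library, circles for experiment 1 and triangles for experiment 2. Libraries with low sums are low for Ezh2 (5.07 CPM in 225), and Cbx7 is near or under 24.1 CPM in all libraries but 225.

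Of the 34 other Polycomb genes, 10 rose in ha, 6 fell and 18 did not pass, close to the share of all genes called, and the median log2 change was 0.06. Rybp, a subunit of variant PRC1, rose by 2.32 ± 0.33 (45.5 ± 5.3 CPM in EF, 228 ± 73 in ha; edgeR adjusted p = 0.00167). Cbx6 rose by 0.82 ± 0.15 and Phc1 by 0.86 ± 0.15, while L3mbtl2 fell by 0.79 ± 0.14 (edgeR adjusted p = 0.00404, 0.0038 and 0.00361). Of 8 other PRC2 subunits 1 rose and 3 fell; Phf19, a Polycomb-like subunit, fell by 1.05 ± 0.19 and Lcor, whose locus encodes a PRC2 cofactor, by 0.91 ± 0.15 (edgeR adjusted p = 0.00421 and 0.00312). Both H3K27 demethylase genes rose in ha: Kdm6b by 2.002 ± 0.28 (19.7 ± 0.20 CPM in EF, 78.8 ± 20.2 in ha), and the X-linked Kdm6a by 1.18 ± 0.14 (26.4 ± 0.95 and 59.8 ± 8.3 CPM; edgeR adjusted p = 0.00146 and 0.000687). Beside Kdm6a, the inactive X chromosome's RNA Xist was at 0.0798 and 0.355 CPM in EF and at 123 CPM or more in every ha and hr library. In EFPrx1MSCLC 221 of experiment 1, which carries the same title number, Xist was at 1200 CPM, so it is the EF libraries that stand apart. The part of Xist in the change of Kdm6a was not tested. Without EF 1 or EF 2, 8 of the 34 passed in ha, and with the close pairs summed 0 did.

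Of the 34, in hr against EF, 1 rose (Kdm6b, 1.31 ± 0.25, edgeR adjusted p = 0.028) and 2 fell (Phf19, -0.82 ± 0.16, and Kdm2b, -0.41 ± 0.09; edgeR adjusted p = 0.0302 and 0.0453), near the 6.95% called among all genes. None of these calls held without EF 1 or EF 2, where no gene of the whole table passed. In hr against ha 5 of the 34 were higher and 12 lower (17.9 and 21.5% of all genes), with a median of -0.12 against 0.00; Rybp was lower in hr by a log2 difference of -1.996 ± 0.26 and Cbx6 by -1.10 ± 0.12 (edgeR adjusted p = 0.00119 and 0.000598). Kdm2b (-0.67 ± 0.09) and Kdm6a (-0.74 ± 0.11) were lower too (edgeR adjusted p = 0.00147 and 0.00202).

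Cdkn2a and Cdkn2b had 0 counts in all 8 libraries of experiment 2, which allows at most 0.183 to 0.268 CPM a library (3 counts of the total, counting error only). Of the 19 target genes 9 passed the low-count filter there, some only through ha: Bmp2, for example, was at 0.120 ± 0.17 CPM in EF (n = 2), 0.106 ± 0.13 in hr (n = 4) and 1.84 ± 0.74 in ha (n = 2). Such genes could only be called higher in ha, so no count or median is given for the list in this experiment. Hoxc10, a posterior homeobox gene, was at 0.160 to 0.177 CPM in EF, 0.511 to 1.35 in hr and 4.66 to 5.41 in ha, without overlap. Hoxa10, which was well above the filter in every group, rose by 1.60 ± 0.27 in ha (11.97 CPM in EF, 36.3 in ha; edgeR adjusted p = 0.00313) and was lower in hr than in ha (-1.75 ± 0.22, edgeR adjusted p = 0.00098). No measure of the histone mark was analysed here, so these are RNA levels only.

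The genes most like each called member were found by the root mean square difference in log2 CPM, centred within each experiment, over the 15 libraries among 10080 genes. For Ezh2 they were Tedc1, Ncapd2 and Cdca2 (0.187, 0.195 and 0.252), against a spread of 0.972 of Ezh2 about its own mean. For Ezh1 they were Lrsam1, Ift88 and Tbc1d9b (0.129 to 0.146, own spread 0.483), and for Suz12 Rnf141, Cd2ap and Shoc2 (0.128 to 0.164, own spread 0.503). Eed was nearest to Ino80e, Psmd13 and Psmc4 (0.090 to 0.115, own spread 0.357), and Jarid2 to Tmem59, Ormdl3 and Adprh (0.197 to 0.219, own spread 0.569). Bmi1 was nearest to Vezt, Hcfc2 and Smyd4 (0.150 to 0.159, own spread 0.490). Cbx2 was nearest to Smchd1, Rubcn and Bhlhb9 (0.231 to 0.237, own spread 0.769), and Cbx7 to Pkd2, Crebl2 and Swap70 (0.295 to 0.312, own spread 0.937).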

How the data were processed

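The authors deposited 1 table of expected counts per gene (RSEM estimates, not normalised) for 15 libraries; STAR, RSEM and the build GRCm38.p6 are named without versions in the submitters' processing notes, while annotation release and strand were not given in the sources used here. Reads of overlapping antisense genes may therefore be mixed: Ezh2, Eed, Suz12 and Cbx7 share 100 to 261 exon bases with a gene on the opposite strand. Counts of 8 of the 9 members were whole in every library (tolerance 0.005), and those of Bmi1 in all but 4, so few reads were divided between copies. Symbols, positions and exon lengths came from GENCODE M21 (GRCm38; 55144 of 55471 identifiers matched).

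Expected counts were rounded and filtered with filterByExpr (minimum count 10), scaled by TMM and tested with edgeR 4.0.16 (glmQLFit, robust; glmQLFTest, two-sided) in R 4.3.3, separately for experiment 1 (7 libraries) and experiment 2 (8 libraries together), with Benjamini-Hochberg adjustment over all genes tested and a threshold of 0.05. The code was tested on simulated data. Alternatives were DESeq2 size factors, no filter, a filter at 5 CPM, DESeq2 1.42.0, limma-voom (limma 3.58.1), each library left out, fewer genes (experiment 1), only the groups compared, a replicate block and close pairs summed (experiment 2). The members and lists were chosen with earlier results of these data known, and the motifs after seeing the data. Named genes are the 9 members, Cdkn2a, Cdkn2b, at most 4 called genes a list and comparison by p-value, and the 3 genes most like each called member. Total counts limit the precision of low genes.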

Additional observations from a re-analysis of the deposited data

Results flagged for a closer look

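In groups of 4 libraries, each member's highest and lowest value was set against the others (gap over range above Dixon's 95% value). Of 18 such checks, 9 in EFPrx1MSCLC and 9 in hr, 2 stood out; chance gives about 1 in 20 for independent libraries, a rate that does not apply to hr, whose 4 libraries are 2 close pairs. Cbx7 in EFPrx1MSCLC 225, at 62.2 CPM, stood far above the 9.49 to 11.8 CPM of the other 3 libraries (gap over range 0.955). Eed in EFPrx1MSCLC 219, at 25.4 CPM, stood above the 18.1 to 18.9 CPM of the other 3 (0.891). Library 225 also had the lowest proliferation sum of its group, and library 219 the highest sum of blood cell markers (472 CPM); their part in these values was not tested.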

How the results depend on the processing

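Of 36 pairs of member and comparison, 16 were called and 4 kept the call under every alternative run: Cbx2 in experiment 1, Suz12 in ha against EF and in hr against ha, and Cbx7 in hr against ha. The cause of the changes below was not tested, except that summing pairs leaves fewer libraries. Under DESeq2, 4598 genes, 6 members and 7 other Polycomb genes were called in EFPrx1MSCLC against MSC (2887, 3 and 4 by edgeR), and 1973 genes and 2 members in hr against EF (973 and 0). With genes limited to 10 CPM in experiment 2, 1278 were called in experiment 1. With only the groups compared, 1927 genes and 5 other Polycomb genes were called in hr against EF (973 and 3). With close pairs summed, 736 genes, 1 member and 0 other Polycomb genes were called in ha against EF (5961, 7 and 16), 0 genes and 0 other Polycomb genes in hr against EF, and 1272, 2 and 2 in hr against ha (5517, 6 and 17).

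Title numbers did not pair the libraries: differences between numbers 1 and 2 correlated at -0.302 to 0.0832 across 9425 genes. With the last title number as a replicate block, 322 genes and 0 other Polycomb genes were called in hr against EF, and Ezh2 lost its call in ha against EF; no other member's call changed. The correlation was above 0 only for EF with the uns-1 line.

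Leaving out each library gave 1219 to 5087 genes, 1 to 5 members and 1 to 12 other Polycomb genes in experiment 1, with 5087 genes without MSC 202, 1673 and 1580 without EFPrx1MSCLC 221 and 229, and 1275 and 1219 without MSC 234 and 237. The ranges were 3070 to 5732, 6 to 7 and 8 to 17 in ha against EF, 0 to 1796, 0 to 0 and 0 to 5 in hr against EF, and 4515 to 5123, 5 to 7 and 11 to 17 in hr against ha. Only Cbx8, never called, changed sign: -0.008 to 0.473 (ha against EF) and -0.392 to 0.088 (hr against ha), both turning without ha 1, and -0.055 to 0.227 (hr against EF), turning without EF 2.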
